A study of Schizosaccharomyces pombe with 6 samples.

Results

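The RPA landscape of fission yeast cells without the checkpoint kinase Rad3 was read from 3 two-colour tiling arrays, all those that carry the rad3 deletion among the 6 of the series. They were chosen by their titles alone, and no measured value entered the choice. The cells were Schizosaccharomyces pombe cdc25-22 with rad3 deleted (rad3Δ below), and IP and input of each array were labelled with this strain. They were arrested for 4 h at 36.5 °C, the temperature at which the cdc25-22 product fails, and let go at 25 °C into 6 mM hydroxyurea. When they were harvested is not stated in the labels used here. DNA recovered with the RPA subunit Ssb1 and the matching input shared each array in different dyes, with the IP in green on replicates 1 and 2 and in red on replicate 3. For replicate 3 the label of the input reads cdc25-23 and that of the IP cdc25-22, which was not resolved.

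RPA is the complex that coats single-stranded DNA. In S phase it binds where origins have been unwound and where helicase and polymerase come apart at forks. Hydroxyurea blocks ribonucleotide reductase and so starves forks of nucleotides, and Rad3, the fission yeast ATR kinase, is recruited to RPA-coated DNA and through the kinase Cds1 holds back further origin firing. Fission yeast origins lack a strict consensus and lie in A+T-rich stretches between genes, where the AT-hooks of the origin recognition subunit Orc4 bind, and asymmetric runs of A or T are their usual feature.

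Such A+T-rich islands carry the central result, so the most A+T-rich 180 bp of 4 of the 5 highest and of the 3 lowest islands are shown. The sequences are those of the RefSeq chromosomes of assembly ASM294v3, in which the islands were found, 5′ to 3′. Runs of at least 5 A or 5 T are in capitals. The 4 high ones, each named by the genes on either side, were:
chk1 and ppc1 (island, chrIII:1098422-1098601, plus strand): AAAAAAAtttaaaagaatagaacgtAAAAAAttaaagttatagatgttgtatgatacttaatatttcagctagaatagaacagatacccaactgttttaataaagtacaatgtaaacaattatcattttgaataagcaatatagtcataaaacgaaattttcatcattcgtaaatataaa
fap2 and ssd2 (island, chrI:1027322-1027501, plus strand): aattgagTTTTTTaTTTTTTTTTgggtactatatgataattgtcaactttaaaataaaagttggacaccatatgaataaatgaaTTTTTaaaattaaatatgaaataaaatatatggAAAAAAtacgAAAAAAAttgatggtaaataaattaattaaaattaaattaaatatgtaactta
zuo1 and rap1 (island, chrII:3097637-3097816, plus strand): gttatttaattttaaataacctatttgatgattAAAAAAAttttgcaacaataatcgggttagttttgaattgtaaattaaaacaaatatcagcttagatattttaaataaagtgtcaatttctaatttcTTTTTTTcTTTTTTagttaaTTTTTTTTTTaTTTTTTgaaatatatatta
pnk1 and ipp1 (island, chrI:2139891-2140070, plus strand): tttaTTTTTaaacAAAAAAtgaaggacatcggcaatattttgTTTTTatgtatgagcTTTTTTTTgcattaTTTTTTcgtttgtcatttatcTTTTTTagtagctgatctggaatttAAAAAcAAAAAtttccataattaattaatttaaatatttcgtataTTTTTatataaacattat
The 3 lowest were:
SPCC622.07 and hta1 (island, chrIII:1410334-1410513, plus strand): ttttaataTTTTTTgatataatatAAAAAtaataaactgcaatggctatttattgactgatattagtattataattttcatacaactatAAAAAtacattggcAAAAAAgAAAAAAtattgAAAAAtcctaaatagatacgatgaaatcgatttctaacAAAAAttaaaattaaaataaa
sec5 and lmb1 (island, chrIII:1416703-1416882, plus strand): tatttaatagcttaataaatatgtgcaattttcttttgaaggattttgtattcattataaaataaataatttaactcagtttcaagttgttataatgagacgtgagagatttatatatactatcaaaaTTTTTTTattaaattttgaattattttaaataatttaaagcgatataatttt
rtn1 and but2 (island, chrII:1264870-1265049, plus strand): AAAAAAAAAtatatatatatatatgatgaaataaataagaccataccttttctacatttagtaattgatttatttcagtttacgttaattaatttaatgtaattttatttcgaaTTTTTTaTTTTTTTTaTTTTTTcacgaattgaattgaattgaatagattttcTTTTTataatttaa
The windows shown for the high islands held 78.9% to 84.4% A+T and those for the lowest 83.3% to 85.6%. Over the whole island, runs of at least 5 A or T numbered a median of 15.7 per kb in the 181 islands above the array median, 15.2 in the 24 below it and 16 in the other 113. By their runs, width (median 700 bp, 800 bp and 650 bp) and A+T content (medians of 75.1%, 75% and 75%) islands high and low in RPA looked alike.

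Values below are log2 IP over input with the median nuclear probe of each array at 0, as mean ± SD of 3 arrays. They describe RPA relative to the median probe and not its absolute amount, and in a population of cells the share of cells with RPA at a site and the amount per cell cannot be told apart. Nuclear probes were well above background in 99.1% to 99.9% of cases for input and 98.7% to 99.3% for IP, median intensities were 986 to 1106 in input and 1031 to 1145 in IP. Precision is limited by there being 3 arrays. Within rad3, the input of 24 probes, from 904607 to 911114 on chromosome II, stood at -7.38, -5.10 and -5.57 on replicates 1, 2 and 3, and these were left out, while 9 others of the gene stood at -0.01, -0.38 and -0.25. No control IP without Ssb1 was analysed here, and as no label calls the replicates independent cultures, the p-values reflect the spread among these arrays alone. The ratio correlated across 42081 probes at 0.64 between replicates 1 and 2, 0.58 between 1 and 3 and 0.67 between 2 and 3, and across 318 islands at 0.87 to 0.91. Replicate 3 had the widest range, with an SD over probes of 0.62, against 0.49 and 0.51 on replicates 1 and 2, so that most extreme sites were farthest from 0 on it. It was also the only array of the 3 with its IP in red, so replicate and dye cannot be told apart here.

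The share of features above the median was largest for A+T-rich islands, followed by tRNA genes and gaps between genes. Of 318 islands, 181 (56.9%) were above the array median and 24 (7.55%) below it by limma at an adjusted p of 0.05. Among 119 tRNA genes with their flanks, 52 (43.7%) were above and 6 (5.04%) below. Neighbouring tRNA genes can share probes, so these counts are not all of separate features. SPBTRNAASN.01 and SPBTRNAMET.05, for example, had the same value on every array and both count as above. Of 1602 gaps between neighbouring protein-coding genes 519 (32.4%) were above and 206 (12.9%) below. Protein-coding genes were split evenly, with 774 of 4158 (18.6%) above and 849 (20.4%) below. As a background of the same width as an island's value, 1 kb windows over the whole genome gave 18.9% above and 17.8% below out of 12024. Single probes gave 13.8% above and 12.8% below. Without replicate 2 the calls for genes dropped to 341 and 274, those for gaps below to 116 and those for single probes to 3623 and 2626, while 153 islands were above the median and 14 below. Calls for 1 kb windows without replicate 2 numbered 1461 above and 1132 below, and those for tRNA genes 40 and 1. With normexp background correction of the median spot signals in place of the processed signals, 0 islands, 0 gaps and 0 genes passed in limma (85 islands, 193 gaps and 316 genes were above at an unadjusted p under 0.05), and 9 tRNA genes and 843 probes were above.

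**Figure D1:**
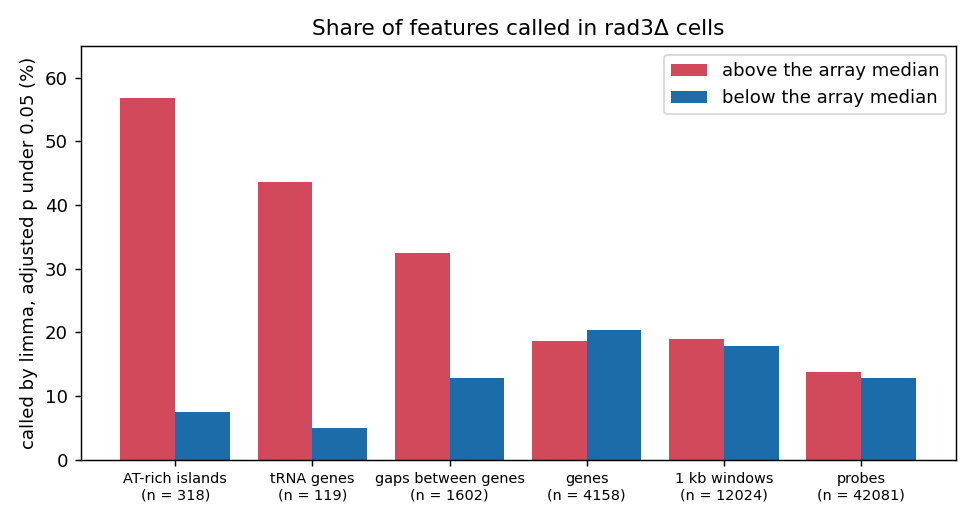
Share of features of each kind called above (red) or below (blue) the array median by limma in 3 rad3Δ arrays, in percent. Islands reach 56.9% above against 7.55% below, while genes and 1 kb windows are near balance.

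Neighbouring probes above the median formed 547 regions of at least 3 probes, which took up 790.6 kb and were typically narrow (median 966 bp). Chromosome I held 262, chromosome II 214 and chromosome III 71. Their levels chose them and are given without a test: they ran from 0.52 to 1.99 with a median of 0.80, and 110 were above 1. In 376 regions (68.7%) the IP signal alone was above the array's median on all 3 arrays. The median IP signal over regions was 0.54, and the median input -0.23, so low input was part of the ratio in many of them. Of the 465 regions in the annotated part, 248 (53.3%) had their summit between genes, where 21.8% of probes lie, and 166 (35.7%) came within 1 kb of an island, against 8.15% of all probes, or 10.9% with 483 bp added, the distance from middle to edge of a region of median width. Among the 20 highest, 15 were annotated, 13 of these had their summit between genes, 11 were within 1 kb of an island, and in 19 of the 20 the IP signal was above the median on all 3 arrays. Without replicate 2 there were 335 regions, and 335 also when 4 probes were asked for.

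The highest region lay between chk1 and ppc1 on chromosome III (1097235 to 1098896), in the centromere, and stood at 1.88, 1.72 and 2.37 on replicates 1, 2 and 3. The next lay between rpb1, the gene of the largest RNA polymerase II subunit, and yox1 on chromosome II (1620842 to 1627570), at 1.84, 1.72 and 2.18, and was the widest of all at 6729 bp. On the arms the highest was the stretch from the gap between ddr48 and jmj1 into jmj1, a histone demethylase gene (I, 2524709 to 2527167), at 1.36, 1.18 and 1.90. It was followed by the stretch between fap2 and ssd2 (I, 1025650 to 1029080) at 1.34, 1.14 and 1.77. The region over nab3 and spo20 (I, 607084 to 610556) stood at 1.27, 1.16 and 1.59. All 20 highest regions were farthest above 0 on replicate 3, and no array of any of these 5 was under 1.

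The others among the 20 highest ran from 1.22 to 1.35. They included the stretches between lcl3 and mrps26 (II, 3237731 to 3238244) at 1.33 ± 0.43, between pcs2 and hsr1 (I, 1952864 to 1956734) at 1.32 ± 0.27 and between SPBC18H10.18C and vps38 (II, 1804222 to 1805408) at 1.31 ± 0.34. The summits over nas6, a proteasome assembly gene (I, 2339190 to 2340532), and itr1, an inositol transporter gene (I, 2641297 to 2645523), lay inside the gene, at 1.28 ± 0.29 and 1.25 ± 0.15. Near the right end of chromosome I, not annotated here and given in the files' coordinates, 5475533 to 5476739 stood at 1.35 ± 0.11, 5315137 to 5317335 at 1.31 ± 0.46 and 5537130 to 5538724 at 1.30 ± 0.14. On chromosome III the highest after the centromere were between coq11 and lsm8 (2275432 to 2276694) at 1.16 ± 0.10 and between SPCC569.05C and SPCC569.03 (2427719 to 2429000) at 1.11 ± 0.15. Besides the centromere of chromosome II, the widest regions were 4441364 to 4447445 on chromosome I, not annotated here, at 0.94 ± 0.11, and those over ecm33, rbx1 and srb10 (I, 1571406 to 1577193) at 0.95 ± 0.21, pex16 to ecl2 (II, 955821 to 961340) at 0.96 ± 0.12 and msc1 to SPAC343.20 (I, 1663265 to 1668709) at 1.11 ± 0.40. The 20 highest regions had a median width of 2329 bp, against 966 bp for all 547.

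**Figure D2:**
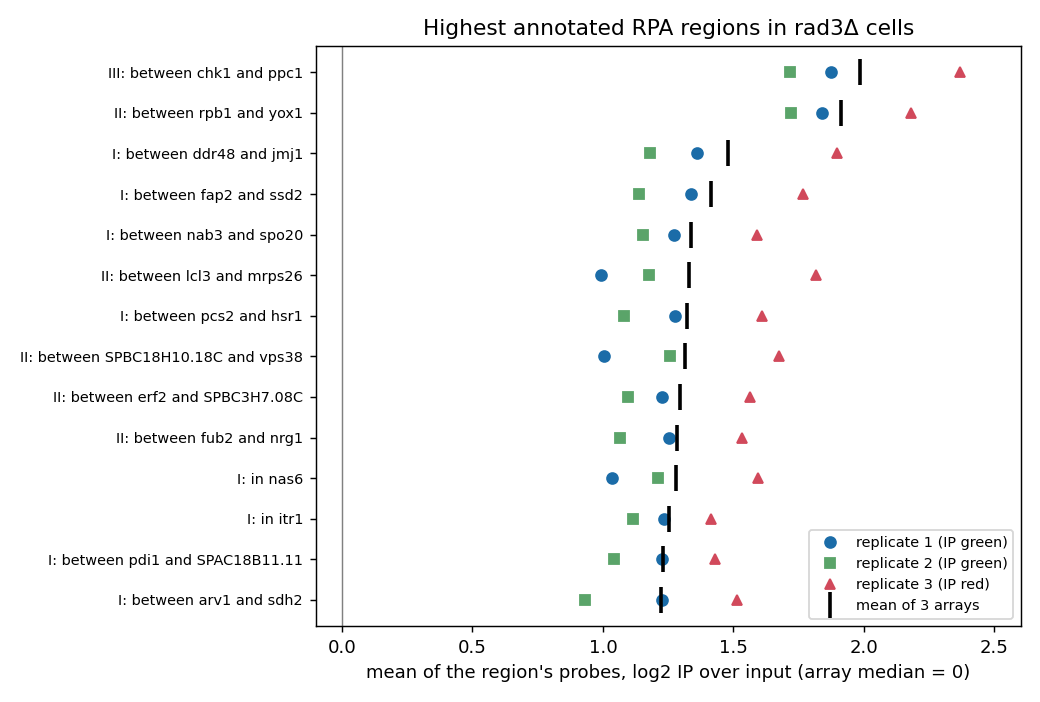
The 14 highest annotated regions, named by the genes at the summit, with the mean log2 IP over input of the region's probes on each of 3 rad3Δ arrays (points) and their mean (bar). The 2 centromeric regions at the top lie between 1.72 and 2.37 and replicate 3 is the highest array in each row.

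Neighbouring probes below the median formed 427 runs covering 492.3 kb, 316 of 362 annotated ones with their lowest probe inside a gene. The other 46 (12.7%) had it between genes, where 21.8% of probes lie. The widest ran over spp42, the gene of the U5 spliceosome protein, and sea2 (I, 2652087 to 2661296; 9210 bp) and stood at -0.71, -0.84 and -1.68. Others lay over rga2 and cnt6 (I, 3350625 to 3355761) at -0.68, -0.86 and -1.95, over cox19, yrs1 and asp1 (III, 568497 to 574558) at -0.66, -0.86 and -0.89, and at 4366045 to 4372469 on chromosome I, not annotated here, at -0.96, -1.10 and -1.60. On chromosome I the lows were much lower on replicate 3 than on the others, and on chromosome III the arrays were closer. Input stood at a median of 0.45 in these runs and IP at -0.40. By chromosome the median input and IP were 0.18 and -0.64 on I, 0.44 and -0.40 on II and 0.83 and 0.05 on III.

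The middles of all 3 centromeres were high in RPA, and the level dropped within 20 kb. Centromeric repeats are thinly tiled, so the centre of the sparsest 50 kb on each chromosome stood for its centromere, and probes within 10 kb of that point were read. All 22 such probes of chromosome II were above the median, from 1.13 to 2.44, with a median of 1.87, 1.81 and 2.31 on replicates 1, 2 and 3. All 7 of chromosome III were above it too, from 1.69 to 2.17, and their medians were 1.76, 1.63 and 2.29. The probes read on chromosomes II and III span the same coordinates as the highest regions of those chromosomes given above. Chromosome I had 6 probes there, of which the 4 between 3769239 and 3773172 stood at 1.58 ± 0.18, 1.91 ± 0.19, 1.70 ± 0.36 and 1.996 ± 0.45 (limma adjusted p at most 0.000101). The first of the 6 was below the median at -0.55 ± 0.38, the next was not called at 0.24 ± 0.37, and these 4 were picked out after their values were seen. IP alone was 1.44, 1.25 and 0.90 above the array median in the middles of centromeres II, III and I, and input -0.18, -0.68 and -0.14. From 20 to 50 kb the medians were 0.04 ± 0.04, -0.03 ± 0.08 and -0.15 ± 0.03 on chromosomes II, III and I.

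The last 100 kb before the last probe of each chromosome were high in RPA, and the stretches after the first probe differed from each other. Distances were counted from 191, 29563 and 30931 on the left of chromosomes I, II and III. On the right they were counted from 5566741, 4491963 and 2439481. The left ends below thus start at unlike coordinates, and the ends are those of the probes, not of the chromosomes. Within 20 kb of the last probe the median stood at 1.001 ± 0.13 on chromosome I, 0.71 ± 0.09 on chromosome II and 0.90 ± 0.15 on chromosome III, with 85.7%, 62.5% and 80.9% of probes above the median. From 50 to 100 kb it was still 0.41 ± 0.09, 0.45 ± 0.07 and 0.35 ± 0.17. At the left ends chromosome III stood at 0.51 ± 0.08 and chromosome II at -0.82 ± 0.55, with 69.4% of its 72 probes below the median and none above it. Its arrays read -0.43, -0.57 and -1.45. The arrays did not agree on chromosome I, with 0.29, -0.43 and 0.23 over 37 probes. On the scale of 100 kb, the last stretch of chromosome III, from 2400001 on, had the largest share of probes above the median (68.8% of 112). The last stretches of chromosomes I (60% of 175) and II (56.9% of 290) followed. These stretches are only partly covered and hold probes of the right ends above. The smallest share was 1.14% of 351 probes, from 1500001 to 1600000 on chromosome III, and the median of 126 stretches was 12.7%.

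**Figure D3:**
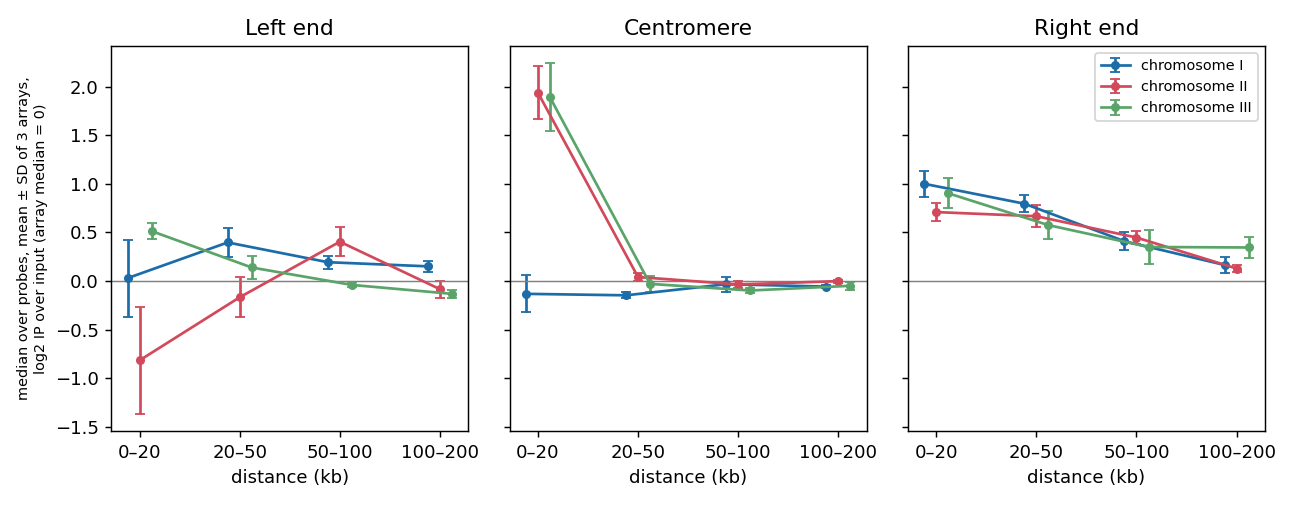
Median log2 IP over input of probes by distance in kb from the first probe, the middle of the centromere and the last probe of each chromosome, as mean ± SD of 3 rad3Δ arrays. Centromeres II and III stand at 1.94 and 1.89 in the first step. The first step of centromere I holds 36 probes, most of them outside the high stretch, and is at -0.13.

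Islands were stretches in which windows of 500 bp held at least 75% A+T, and their value is the mean of probes within 500 bp of the middle. The 5 highest, of which 4 are printed above, were the following. The centromeric island between chk1 and ppc1 stood at 2.02, 1.70 and 2.31 on replicates 1, 2 and 3. That between ddr48 and jmj1 stood at 1.70, 1.60 and 2.47. The island between fap2 and ssd2 had 1.68, 1.56 and 2.29. On every array each of these 3 was over 1.5. The island between zuo1, a ribosome-bound chaperone gene, and rap1, a telomere protein gene, stood at 1.72, 1.52 and 2.15. The one between pnk1, a DNA end-processing enzyme gene, and ipp1, the inorganic pyrophosphatase gene, had 1.73, 1.69 and 1.95. The next 3 lay between mug147 and SPBC56F2.05C (II, 4106951 to 4107650), glm1 and seh1 (I, 2398451 to 2399150) and nab3 and spo20 (I, 607701 to 608450), at 1.76 ± 0.32, 1.67 ± 0.17 and 1.63 ± 0.25. Among these 8 of 303 islands with at least 3 probes, 7 lay between divergent genes, as did 136 of all 318 islands. Each of the 8 had a limma adjusted p of at most 2.33e-12, with a spread pooled over islands. This p-value depended on the setting: the limma adjusted p of the 8 was 0.105 to 0.117 with normexp and up to 0.000138 in the other alternatives. Their IP signal alone stood 0.78 to 2.30 above the array median, and their input at -1.14 to 0.58.

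The lowest islands were 3 on chromosome III and 1 on chromosome II. The island between SPCC622.07 and the histone gene hta1 (III, 1409951 to 1410750) stood at -0.72, -0.64 and -0.92. That between sec5 and lmb1 (III, 1416401 to 1417250) stood at -0.68, -0.49 and -0.93, and lies beside the other. The island between rtn1 and but2 (II, 1264501 to 1265300) had -0.49, -0.57 and -0.95, and that between lto1 and gst1 (III, 1718351 to 1719300) -0.73, -0.40 and -0.75. No array of these 4 reached 0 (limma adjusted p at most 9.07e-05). Their input stood at -0.69 to 1.16 and their IP signal alone at -1.43 to 0.49.

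Chromosomes differed in how many islands held RPA. On chromosome I, left of its centromere, 72 of 108 islands (66.7%) were above the median and 5 below, on chromosome II 92 of 153 (60.1%) and 8, and on chromosome III 17 of 57 (29.8%) and 11. The median island stood at 0.61 ± 0.13, 0.50 ± 0.09 and 0.01 ± 0.06 on chromosomes I, II and III. Over all probes chromosome III was lower too, with 8.89% above the median against 14.8% on chromosome I and 15.2% on chromosome II, and no test of a difference between chromosomes was made. Islands between divergent genes had a median of 0.61 ± 0.13 (n = 136), tandem ones 0.35 ± 0.03 (n = 115), convergent ones 0.21 ± 0.05 (n = 33) and those with their middle inside a gene 0.33 ± 0.05 (n = 34). In islands within 5 kb of the next the median was 0.29 ± 0.05 (n = 58), and in those over 15 kb from any other 0.54 ± 0.09 (n = 150). Across the 318 islands the level had a Spearman correlation of 0.09 with width, 0.05 with A+T content, -0.05 with input and 0.65 with the IP signal.

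The excess at islands was narrow. Probes inside an island had a median of 0.49 ± 0.04, those up to 1 kb from its edge 0.22 ± 0.11, those 1 to 2 kb away 0.15 ± 0.10 and those 2 to 3 kb away 0.04 ± 0.03. From 3 to 4 kb the median was -0.01 ± 0.03. Probes within 1 kb exceeded those over 5 kb away by 0.27, 0.27 and 0.44 on replicates 1, 2 and 3, which is positive on 3 of 3 arrays (exact sign-flip permutation p = 0.25, two-sided, the smallest that 3 arrays can give). The IP signal alone was higher near islands by 0.40, 0.48 and 0.62, and the input was also higher there, by 0.12, 0.21 and 0.17. Inside islands alone the median input was 0.02, against 0.16 up to 1 kb from the edge, and the median IP 0.56 against 0.37. The part of input in the excess was not tested. Among probes of 36% to 39% G+C alone, a choice made after seeing the data, the excess was 0.18, 0.21 and 0.44. By chromosome the excess was 0.46 ± 0.14 on I, 0.38 ± 0.11 on II and -0.04 ± 0.01 on III. On chromosome III the IP signal alone was higher near islands by 0.06, 0.08 and 0.14, and the input by 0.03, 0.14 and 0.13. Probes inside islands there had a median of 0.07 ± 0.06, and those 2 to 3 kb away stood at -0.19 ± 0.02. Median input was -0.22 inside these islands and 0.29 at 2 to 3 kb, while median IP was 0.13 and 0.09.

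**Figure D4:**
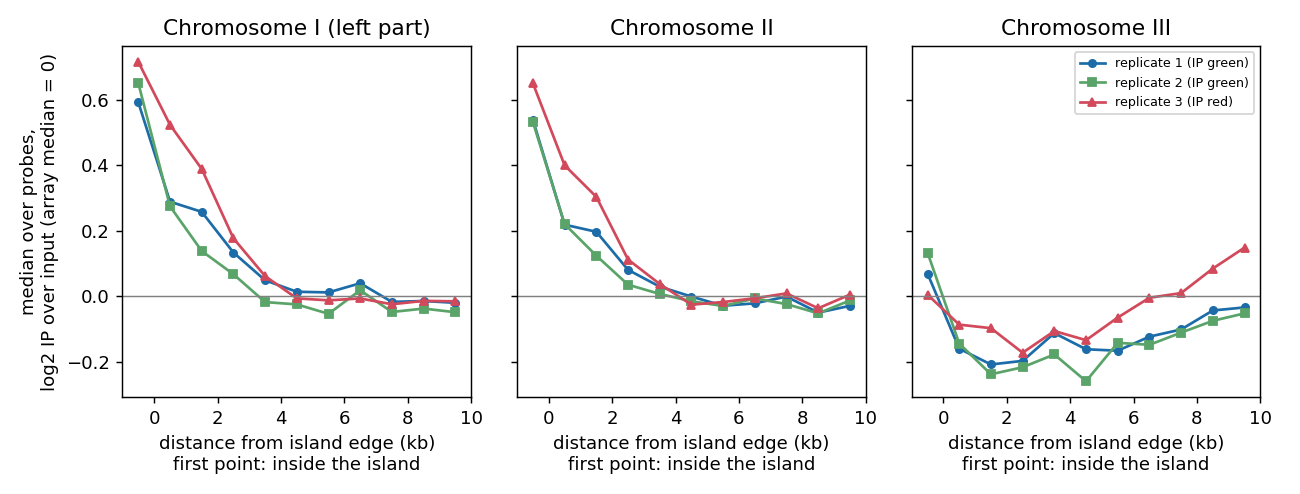
Median log2 IP over input of probes by distance in kb from the edge of the nearest A+T-rich island, for each of 3 rad3Δ arrays (lines). On chromosomes I and II the 3 arrays drop to about 0 by 4 kb, and on chromosome III they lie below 0 from the island edge to 6 kb.

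Gaps between genes were higher than genes. Their probes had a median of 0.15 ± 0.01 over 7878 probes, against -0.04 ± 0.00 over 28227 probes in genes. Gaps that hold the middle of an island were above the median in 142 of 244 cases (58.2%), against 377 of 1358 (27.8%) without one. The share above the median also went with A+T content, from 19.3% of gaps with up to 66% A+T to 53.1% of those over 74%, and with length, from 27.2% of gaps up to 600 bp to 43.4% of those over 1500 bp. Divergent gaps stood at a median of 0.13 ± 0.01 (n = 741), tandem ones at 0.13 ± 0.04 (n = 761) and convergent ones at 0.21 ± 0.06 (n = 100). Only neighbours whose annotated spans leave a gap with at least 2 probes were counted, and few of these were convergent. The divergent minus convergent difference was -0.11, -0.14 and -0.01 on replicates 1, 2 and 3 (exact sign-flip permutation p = 0.25, two-sided, again the smallest possible). Among gaps with an island the order was turned, with 0.56 ± 0.09 in 130 divergent, 0.37 ± 0.01 in 22 convergent and 0.34 ± 0.10 in 92 tandem gaps, which were not tested.

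The highest gap lay between pnk1 and ipp1 (I, 2139468 to 2140501), at 1.73, 1.69 and 1.95. The gap between ddr48 and jmj1 (I, 2524675 to 2525803) stood at 1.54, 1.46 and 2.32. That between itr1 and hcs1, the HMG-CoA synthase gene (I, 2642321 to 2643523), had 1.52, 1.42 and 1.96. No array was under 1.4 in these 3 gaps. The gap between hsk1, the gene of the kinase that fires origins, and cnd1, a condensin gene (II, 3199202 to 3200087), stood at 1.66, 1.29 and 1.91. Then came arv1 to sdh2 (1.57 ± 0.33), mex67 to SPBC1921.04C (1.55 ± 0.06), pdi1 to SPAC18B11.11 (1.51 ± 0.30) and nab3 to spo20 (1.51 ± 0.29). Of these 8, 5 were divergent and 3 tandem, and 6 held an island (limma adjusted p at most 2.9e-05). The lowest gaps were pat10 to rhp6 at -0.62, -1.08 and -1.55, ubc1 to gsf1 at -0.54, -0.67 and -1.81, alg12 to atp3 at -0.87, -0.84 and -1.28 and mix17 to SPAC6C3.03C at -0.54, -0.74 and -1.56 (adjusted p at most 0.00312). None of them held an island, which 15.2% of all 1602 gaps did, and each was lowest on replicate 3.

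From the middle of a high gap RPA dropped to the median or below it within about 4 to 6 kb. Around the gap between pnk1 and ipp1 the mean was 1.65 ± 0.23 in the first kb, 0.85 ± 0.15 in the next, 0.46 ± 0.22 between 2 and 4 kb and -0.07 ± 0.13 at 4 to 6 kb. Around ddr48 and jmj1 it was 1.49 ± 0.35, 0.82 ± 0.32, 0.33 ± 0.11 and -0.35 ± 0.31. Around hsk1 and cnd1 it was 1.31 ± 0.30, 0.60 ± 0.16, 0.18 ± 0.22 and -0.38 ± 0.23. At each of the 3 sites the mean was lower with every step up to 6 kb. From 6 to 10 kb the means were -0.30 ± 0.17, -0.41 ± 0.40 and -0.19 ± 0.13. There 10 of 29, 11 of 26 and 5 of 26 probes were called below the median, against 12.8% of all probes. The steps pool both sides. Around pnk1 and ipp1 the 10 low probes lay to the right, and 2 called above the median lay to the left. At 2 to 4 kb from ddr48 and jmj1, the 6 probes called above the median lay to the right and the 2 called below to the left. At that distance from hsk1 and cnd1, the 3 called above lay to the left and the 1 called below to the right. The low stretch at ubc1 and gsf1 was broad, at -1.05 ± 0.74 within 1 kb, -0.23 ± 0.35 at 4 to 6 kb and -0.53 ± 0.25 beyond that up to 10 kb. Over the whole genome the ratios of probe pairs 0.3 kb apart correlated at 0.35, 0.49 and 0.65 on replicates 1, 2 and 3, those 5 kb apart at 0.14, 0.23 and 0.27, and those 20 kb apart at 0.04, 0.03 and 0.03.

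**Figure D5:**
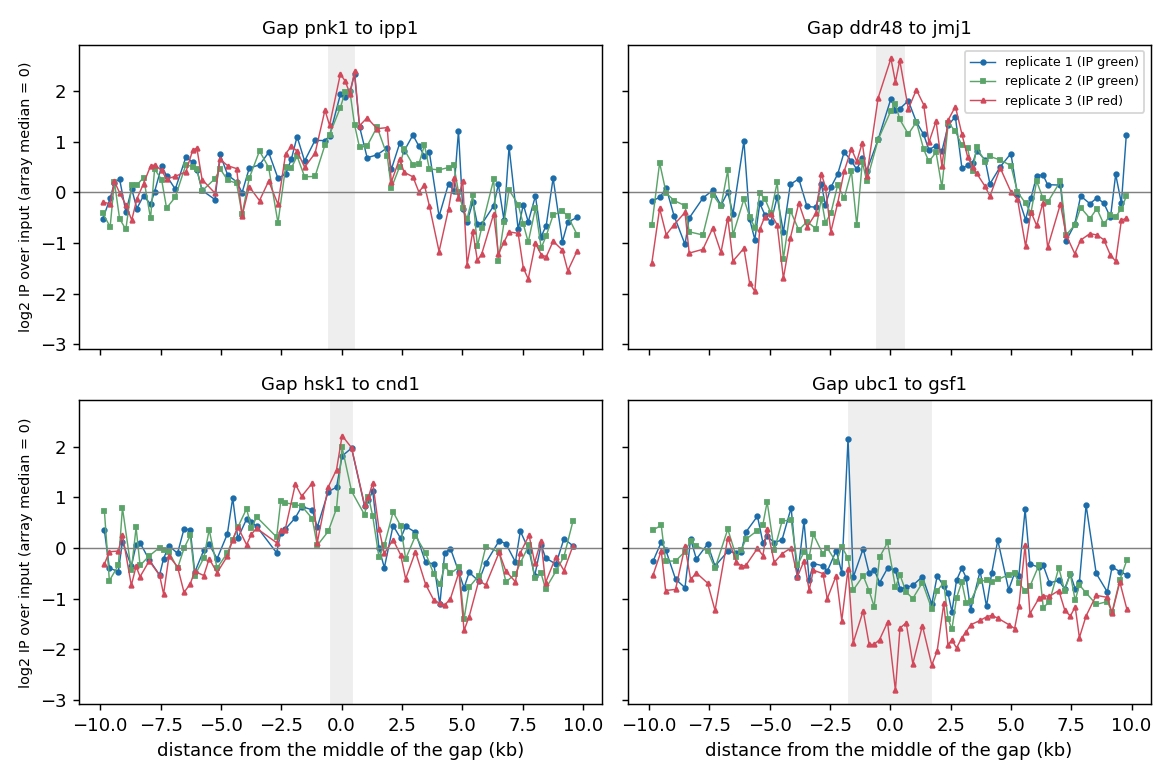
Log2 IP over input of single probes by distance in kb from the middle of 4 gaps between genes (gap shaded), for each of 3 rad3Δ arrays. The 3 high gaps peak in or at the edge of the shading and drop to about 0 or below it within 4 to 6 kb. The gap between ubc1 and gsf1 is low, with its right flank, most on replicate 3, apart from 1 high probe of replicate 1 at its left edge.

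Among the genes highest in RPA, gmf1, ipp1, snu13, arg82 and spo20 border gaps named by the same rule or next in height. gmf1, an actin regulator gene (I, 2025251 to 2026052), stood at 1.41, 1.35 and 1.80. ipp1 (I, 2140502 to 2141698) stood at 1.26, 1.10 and 1.60. git11, which encodes a G protein gamma subunit (II, 4030497 to 4031572), had 0.85, 1.21 and 1.70. Its arrays were far apart, while those of arg82, an inositol polyphosphate kinase gene (I, 2042358 to 2043469), read 1.19, 1.20 and 1.21. The other 6 of the 10 highest were SPBC19C7.04C (1.39 ± 0.24), SPBC3E7.07C (1.30 ± 0.20), the snoRNP gene snu13 (1.23 ± 0.34), the proteasome gene scl1 (1.21 ± 0.29), spo20 (1.19 ± 0.17) and SPAC343.21 (1.18 ± 0.65). All 10 were called with a limma adjusted p of at most 0.000203, and SPBC19C7.04C had an input of -2.08, the lowest of them, with an IP signal of -0.73, below the array median. Of 3045 genes with at least 5 probes, 95 (3.12%) had every probe above the median on all 3 arrays. The highest of these, besides git11 and spo20, included SPCC965.09 (1.14 ± 0.17), SPCC16C4.04 (1.14 ± 0.19), SPCC569.06 (1.13 ± 0.20), jmj1 (1.12 ± 0.29), hcs1 (1.11 ± 0.08), sym1 (1.04 ± 0.22) and brr6 (1.04 ± 0.12).

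The lowest genes formed a few neighbourhoods. cnt6, an ARF GTPase-activating protein gene (I, 3352368 to 3356297), stood at -0.52, -0.85 and -2.07. The exoribonuclease gene dhp1 (-0.98 ± 0.62) overlaps both its end and SPAC26A3.11 (-1.13 ± 0.69), so these genes share probes. spp42 (I, 2650719 to 2658024) stood at -0.74, -0.81 and -1.77, and sea2 (I, 2655806 to 2661055), which overlaps it, at -0.72, -0.82 and -1.72. Near the left end of chromosome II grt1 (-1.09 ± 0.52) and fah1 (-1.04 ± 0.43) overlap each other. The rest of the 10 were gsf1 (-1.08 ± 0.50), SPCC622.06C (-1.02 ± 0.24) and taf5, a TFIID gene (-0.98 ± 0.26), with limma adjusted p of at most 0.000667 for all 10. In 8 of the 10 replicate 3 was the lowest array.

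Long genes were lower than short ones. The share above the median was 22.7% of 550 genes up to 1 kb and 5.88% of 119 genes over 5 kb, and the share below it 17.5% and 26.1%. Their medians were 0.03 ± 0.02 and -0.11 ± 0.05. Within genes of at least 1 kb, cut in 3 stretches of equal length along the direction of transcription, the median was -0.03 ± 0.01 in the first, -0.08 ± 0.01 in the middle one and -0.02 ± 0.02 in the last. Probes in the middle stretch were above the median least often, at 8.51%, against 11.1% in the first and 11.3% in the last. None of these orders was tested.

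tRNA genes, which are transcribed by RNA polymerase III and are known as places where forks pause, were read from probes within 500 bp of the gene. Their median was 0.29, 0.25 and 0.24 on replicates 1, 2 and 3. The highest was SPCTRNAGLU.10, a tRNA-Glu gene in the centromere of chromosome III (1097499 to 1097570), at 1.76, 1.80 and 2.51. It was read from 2 probes and lies in the highest region, whose probes also gave the middle of centromere III. SPBTRNAGLU.08 (II, 4107639 to 4107710), beside the island between mug147 and SPBC56F2.05C, stood at 1.46, 1.16 and 1.94, and SPBTRNAGLY.09 (II, 2069487 to 2069557) at 1.10, 1.23 and 1.49. The lowest were SPCTRNAGLN.05 at -0.36, -0.54 and -0.43, SPBTRNAPRO.04 at -0.29, -0.26 and -0.78 and SPCTRNAGLY.11 at -0.16, -0.37 and -0.48 (limma adjusted p at most 0.0214). The calls for these 3 low genes held in 7, 6 and 5 of 9 alternatives. Of 81 tRNA genes over 1 kb from any island 34 (42%) were above the median, and of 38 nearer ones 18 (47.4%). On chromosome I 23 of 40 were above and none below, on chromosome II 20 and 2 of 45, and on chromosome III 9 and 4 of 34.

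The counts of genes grouped by function are to be read against all genes, of which 18.6% were above and 20.4% below with a median gene at -0.01. Of 6 histone genes measured, none was above the median and 3 were below it, with a list median of -0.34 ± 0.20: htb1 (H2B) stood at -0.41, -0.71 and -0.80, hta1 (H2A) at -0.34, -0.69 and -0.77 and hht2 (H3) at -0.49, -0.28 and -0.75. htb1 and hta1 are neighbours and lie between the 2 lowest islands. The highest members, not called, were hhf2 (H4) with 2 probes at 1.35, 0.19 and -0.39 and the variant gene pht1 at 0.01 ± 0.21. Cytosolic ribosomal protein genes had 18 of 91 above and 15 below with a median of 0.01 ± 0.11, with rps901 (1.03 ± 0.37) and rpl3602 (0.85 ± 0.57) at the top and rpp101 (-0.66 ± 0.72) and rpl1101 (-0.62 ± 0.37) at the bottom. No Tf2 retrotransposon had 2 probes.

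Genes of the MBF factor, switched on at the G1/S transition, had 4 of 18 above and 4 below with a median of -0.08 ± 0.09. suc22, the small subunit gene of ribonucleotide reductase, stood at 0.41, 0.74 and 1.04, and the cohesin gene rad21 at 0.23, 0.42 and 0.68. nrm1, the MBF corepressor gene (-0.59 ± 0.33), and cdt2, a ubiquitin ligase adaptor gene (-0.47 ± 0.25), were lowest. Of the RPA and ribonucleotide reductase genes suc22 alone of 4 was called (median 0.08 ± 0.09), while spd2 (0.20 ± 0.21) and the RPA genes ssb2 (-0.12 ± 0.11) and ssb1 (-0.26 ± 0.22) were not. Checkpoint genes (median -0.11 ± 0.08) had 1 of 8 above, crb2 at 0.38 ± 0.07, and 1 below, chk1 at -0.48 ± 0.15, with tel1 at 0.07 ± 0.06 and rad4 at -0.14 ± 0.09 not called. Origin and replisome genes (median 0.00 ± 0.02) had 6 of 30 above and 5 below. hsk1 stood at 0.62, 0.64 and 0.79 and the sliding clamp gene pcn1 at 0.27, 0.48 and 0.67, while the helicase genes mcm6 (-0.23, -0.52 and -1.02) and mcm2 (-0.47 ± 0.24) were below.

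Septum and cell wall genes (median -0.02 ± 0.09) had 3 of 10 above and 2 below. The glucanase gene exg1 stood at 0.63, 1.04 and 1.24 and ecm33 at 0.44 ± 0.17, and chs2 (-0.42 ± 0.10) and ags1 (-0.29 ± 0.12) were below. Glycolysis and translation factor genes (median 0.03 ± 0.13) had 3 of 13 above, led by ipp1 and tdh1 (0.42 ± 0.06), and 4 below, with adh1 (-0.66 ± 0.26) and eno102 (-0.64 ± 0.26) lowest. Heat shock and stress genes (median 0.09 ± 0.06) had 4 of 15 above and 3 below. hsp16 stood at 1.07, 0.58 and 1.47 and hsp104 at 0.39 ± 0.27, against hsp20 at -0.71, -1.03 and -0.82 and mas5 at -0.80 ± 0.36. Thiamine genes (median 0.11 ± 0.08) had 1 of 8 above, thi5 (0.28 ± 0.19), and 2 below, nmt1 (-0.32 ± 0.05) and bsu1 (-0.30 ± 0.06), and pho4 was not called at 0.28 ± 0.24. Subtelomere and surface genes (median 0.07 ± 0.04) had 2 of 9 above, pfl7 (0.35 ± 0.04) and pfl5 (0.35 ± 0.33), and 2 below, pfl3 (-0.72 ± 0.25) and tlh1 (-0.36 ± 0.34). The call for thi5 held in 4 of 9 alternatives (limma adjusted p up to 0.368 outside normexp) and that for pfl5 in 5 (up to 0.279). Besides normexp, the calls for rad21, cdt2, crb2, chk1, pcn1, mcm2, mcm6, bsu1, nmt1, ags1, chs2, tdh1, pfl7, tlh1 and rpp101 were each lost in at least 1 alternative.

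The surroundings of 2 genes beside well-studied origins were read against the shares over all probes of their chromosomes, 8.89% above and 14.4% below on chromosome III and 14.8% above and 12.8% below on chromosome I. Within 10 kb of ura4 (III, 115589 to 116625), beside the origins ars3002 to ars3004, 5 of 81 probes were above the median and 15 below, and no region was called. The highest probe lay 6.00 kb to the left, between SPCC330.19C and SPCC330.03C, at 0.94, 0.76 and 0.65. Within 10 kb of hus5 (I, 1094262 to 1095474), the locus of ars1, 9 of 75 probes were above and 14 below, with 1 region. The highest probe there lay 5.99 kb to the right, in rad52, at 0.38, 0.81 and 0.92. The genes themselves were not called, with ura4 at 0.03 (adjusted p = 0.819) and hus5 at -0.20 (adjusted p = 0.15).

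Input and base composition moved with the ratio over single probes. Its correlation with the input signal was -0.38, -0.22 and -0.20 on replicates 1, 2 and 3, with the IP signal 0.02, 0.27 and 0.33, and with the G+C of the probe -0.20, -0.22 and -0.04. Both signals enter the ratio, and these are descriptions over 42081 probes, or 36105 for G+C. Probes of up to 35% G+C were above the median in 19.2% of cases and those over 39% in 8.64%. The part of input and base composition in the calls was not tested, and the island excess in probes of like G+C is a description.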

How the data were processed

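RPA ChIP on tiling arrays was measured in 3 rad3Δ samples. Per the file headers, the deposited processed intensity had its background subtracted, a spatial trend removed and 1 linear factor applied to each dye, without lowess, in Agilent Feature Extraction 10.7.1.1 and 10.7.3.1. The deposited log10 ratio (red over green) served as a check, and the authors' series matrix, a linear ratio of IP over input, as an alternative. Log2 IP over input was centred on the nuclear median of each array, control and outlier spots left out, and fitted with limma 3.58.1 in R 4.3.3 (mean against 0, two-sided, Benjamini-Hochberg, 0.05; 11.5 prior and 2 residual degrees of freedom for probes). The fit was tested on simulated data. Genes, gaps, islands and tRNA genes are means of at least 2 probes.

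Coordinates are of Spombe:NCBI:Feb2002. Matched by probe length against G+C, they agree within 12 bp with ASM294v3 in 719 of 727 windows on chromosomes II, III and I up to 3751045 (36583 probes, 85.8%). There names and islands (359) were taken. The rest of chromosome I is offset and was not annotated. Regions are runs of at least 3 called probes with starts up to 1000 bp apart.

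Members, lists and the rule for named features (by height, width or list rank) were chosen with earlier results of these data known. The 1 kb windows and the G+C restriction were added later. One gene that the rule names and 1 island sequence are not reported here. Normexp used median spot signals, as no mean signal column is in the files used here. The alternatives were normexp, the series matrix, the mode, a dye term, all 6 arrays, a dim-probe filter, each replicate left out, other run settings and 72% A+T. Tables were handled in pandas 2.3.3 and numpy 2.4.6 under Python 3.11.15, and plots drawn with matplotlib 3.10.9.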

Additional observations from a re-analysis of the deposited data

How the results depend on the processing

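No paired analysis was possible because only 1 strain enters, so that same-numbered arrays belong to no comparison. With the series matrix, the mode, a dye term, all 6 arrays or the dim-probe filter the counts stayed within 1.5 times their values, except tRNA genes below (2 with the mode, against 6) and, with a dye term, islands below (38, against 24) and islands of at least 72% A+T below (222, against 135), and both differences moved by less than 1 SD. The normexp correction ended nearly all calls by limma: 843 probes were above and 1689 below, with 9 tRNA genes above and 59 regions, and 0 genes, 0 gaps and 0 islands passed, with 316 genes above and 498 below, 193 gaps above and 119 below and 85 islands above at an unadjusted p under 0.05. It gave a near minus far excess of 0.217 (0.29, -0.12 and 0.48 on replicates 1, 2 and 3) and a value of -0.0048 for divergent minus convergent gaps. On replicate 2 its values correlated with the processed ones at 0.34, against 0.74 and 0.98 on replicates 1 and 3, and the cause was not tested. With single replicates left out, probes above numbered 3623 to 4827 and below 2626 to 4961, genes above 341 to 702 and below 274 to 805, gaps below 116 to 195 and regions 335 to 458. Islands below numbered 14 to 25 and tRNA genes below 1 to 7. Regions of at least 4 probes numbered 335, and islands of at least 72% A+T gave 542 of 1429 above (37.9%). Of 92 named features called, normexp kept 3, all tRNA genes, and turned rpl1101 to 0.18. Leaving out replicate 2 ended 19 calls, replicates 1 and 3 ended 4 each, the mode 5 and all 6 arrays 1. Uncalled hhf2 ran from -0.10 (without replicate 1) to 0.768 (without replicate 3, called) and pht1 from -0.0796 to 0.124 with single replicates left out (-0.0204 without replicate 2), and pht1 turned to -0.0500 with a dye term and -0.0443 with all 6 arrays. The 3 arrays limit all p-values, and single probes vary more than islands.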
